A study of Rattus norvegicus with 6 samples.

Results

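Ion channels and calcium transporters set the electrical activity of muscle cells. The mRNA levels of 135 of their genes were compared between control rat H9c2 cells and separate samples after hypoxia/reoxygenation (H/R). The set holds the pore and accessory subunits of voltage-gated sodium, calcium and potassium channels, the other potassium channels, the HCN pacemaker channels, the ryanodine and inositol trisphosphate receptors, the calcium pumps and the sodium-calcium exchangers. Members were chosen by gene symbol alone, from the start of the symbol (Scn with a digit, Kcn, Cacn, Hcn, Ryr, Itpr, Atp2a, Atp2b and Slc8a), among 13823 genes with a symbol and a usable coding probe on the array. The rule uses no measured value, but it was set with earlier results of these data known. They are covered by 145 coding probes. For the 8 genes with more than 1 probe, the probe of highest mean signal stands for the gene.

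H9c2 is a line of myoblasts from embryonic rat heart, which can form skeletal-type myotubes and does not beat, and this limits it as a model of a heart muscle cell. The control group was 3 samples of cells kept in normal oxygen, and the H/R group was 3 samples of cells that spent 1 h in 1% O2, 5% CO2 and 94% N2 without serum or glucose and then 3 h in normal oxygen. Before that, both groups grew with 10% serum and glucose at 4500 mg/L. What the control cells were kept in during the experiment is not stated, so an effect of oxygen and an effect of serum and glucose withdrawal cannot be told apart. RNA was read on a 1-colour Agilent array. Replicates 2 and 3 of a group carry 1 array position read in different scans, and they have 36 uneven-background spots in common, where any other pair has at most 1. Their mean was taken as 1 array, so n = 2 arrays per group. The series' design text speaks of 3 independent experiments in a group, which the shared array position does not bear out for replicates 2 and 3. No label ties an array to a culture of its own, and the p-values measure array-to-array spread alone, possibly technical. Taking the 6 scans as separate samples would raise the members called from 10 higher and 6 lower, given below, to 24 and 12. Between 58.4% and 71.1% of spots were well above background in a scan, highest in H/R replicates 2 and 3, 0 spots were saturated, and the number of arrays limits the precision.

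As background, the sodium channel opens to start the action potential, L-type and T-type calcium channels admit calcium, and potassium channels bring the membrane back to rest and hold it there. Calcium entering the cell triggers more release from the sarcoplasmic reticulum through ryanodine receptors, and calcium is then cleared by the SERCA pump into the reticulum and by the sodium-calcium exchanger and the plasma membrane pump out of the cell. Accessory subunits carry no current themselves and change the gating or the surface level of the pore subunit.

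Of the 135 genes, 62 were well above background in all 6 scans and 38 in none, which is 45.9% in all scans against 68.2% of all genes. A gene was tested where, in control or in H/R, each of the 3 scans was well above background, which held for 68 members. Among them 10 rose and 6 fell after H/R (limma, adjusted p under 0.05 over all 15899 probes). These are 14.7% and 8.82% of the members tested, against 16.2% higher and 9.62% lower among the 10001 protein-coding genes tested, with 25.8% of all genes called in either direction, so the set as a whole did not stand out from the background. The median change was 0.13 on the log2 scale, against 0.07 over all genes tested. Kcnv2, Kcnn1 and Kcnab2 rose by at least 2-fold. Units below are processed intensities scaled so that the 75th percentile of the probes is 2246 on every array. They are given for replicates 1 to 3 in that order and compared within a probe, except in the sums over marker lists. Where an array is left out below, the fit has 1 array in that group and 1 residual degree of freedom. Fewer probes passed over the whole array in each such fit. A lost call alone therefore does not show that a gene's change is unstable. In bulk RNA, fewer cells of a type and less RNA per cell cannot be told apart.

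**Figure D1:**
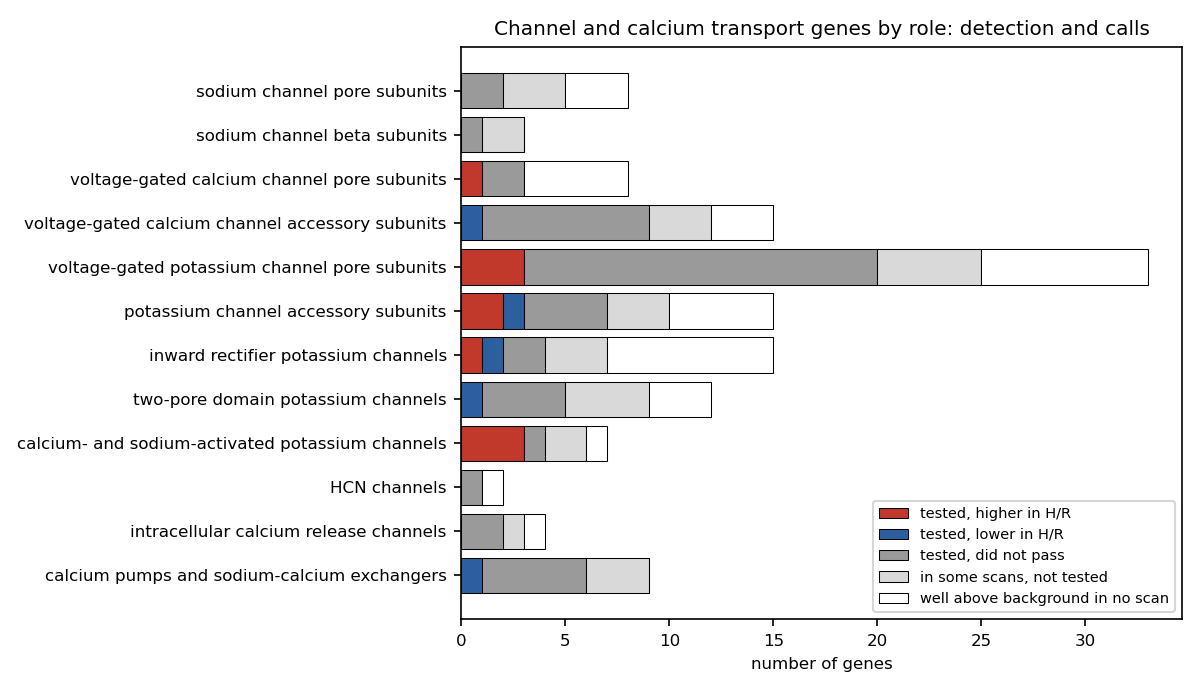
Number of channel and calcium transport genes (horizontal axis) in each role (vertical axis), split into genes tested and higher or lower in H/R, tested without passing, well above background in some scans but not tested, and well above background in no scan. The voltage-gated potassium channel pore subunits are the largest role, the 3 called calcium- and sodium-activated potassium channels all rose, and 131 genes are drawn, without members not reported here.

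The labelled cell type was checked against marker genes. Each scan read all 13 muscle markers on the array well above background, desmin and the myogenic factors Myog, Myod1 and Myf5 among them. Of 9 neuron markers, 7 were well above background in no scan, and Ptprc, Adgre1 and Itgam of the leukocyte list and Pecam1 and Cdh5 of the endothelial list were likewise in none. The other leukocyte markers, Cd68, Csf1r, Aif1, Cd3e, Lyz2 and Fcer1g, and the other endothelial markers, Tek and Emcn, were above background in each of the 6 scans. The summed signal of the 13 muscle markers lay between 63714 and 67538 scaled units in the control scans. In the H/R scans it lay between 66224 and 74210, so the sums overlapped. Bright probes set such a sum. In control, Tnnc1 alone read 22927 to 23638 units and Myod1 14529 to 18852. The overlap therefore does not show that the list was unchanged. Desmin (Des) read between 1709 and 2288 units in control, 1625 in H/R replicate 1 and 6117 and 6242 in H/R replicates 2 and 3, so the H/R arrays differed in it. With H/R, 5 of the 13 muscle markers rose and 1 fell, or 38.5% and 7.69%. Among all genes tested 16.2% were higher and 9.62% lower, which is also the background for the lists below. Tnnt2, Myh3, Myh6, Tnnt1 and Ckm rose by 1.13, 0.78, 0.99, 0.51 and 1.22 on the log2 scale, and Myod1, a myogenic transcription factor, fell by 1.48. The 6 glia markers on the array summed to between 918 and 939 units in control and between 1564 and 1627 in H/R, with 5 tested and 2 higher. The neuron list summed to between 662 and 689 units in control and between 1426 and 1555 in H/R. Most of this sum was Tubb3, the 1 tested member, at 612 to 626 units in control and 1374 to 1500 in H/R. Tubb3 was higher by 1.21. The 4 endothelial markers summed to between 155 and 164 units in control and between 268 and 314 in H/R, and Tek, 1 of 2 tested, rose by 1.11. The 9 leukocyte markers summed to between 2052 and 2336 units in control and between 2350 and 2414 in H/R, with 0 of 6 tested called. The part of these markers in the channel results was not tested.

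The sodium channel genes described here were dim or did not pass. The pore subunit genes Scn2a and Scn11a differed by -0.05 and 0.19. Scn3b, the gene of a beta subunit, which tunes gating and adhesion, read 98.2, 119 and 112 units in control and 83.0, 85.3 and 83.8 in H/R. Its difference was -0.34 ± 0.12 (adjusted p = 0.0948), with all H/R scans below all control scans. That position alone says little, since the H/R scans lay entirely above or entirely below the control scans for 66.1% of all genes tested and for 45 of the 68 members. Scn2b was well above background in H/R replicates 2 and 3 only and Scn4b in 1 control scan, and neither was tested.

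**Figure D2:**
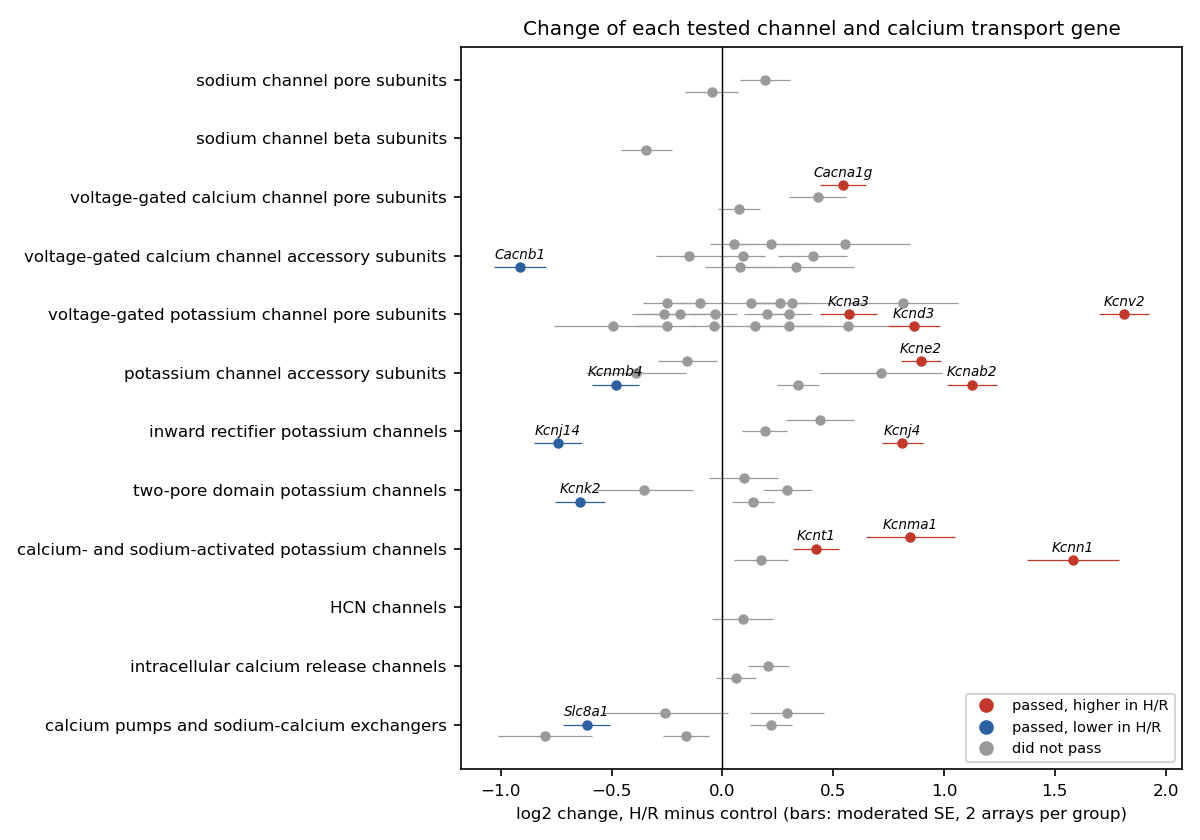
Change of each tested gene, H/R minus control, on the log2 scale (horizontal axis) by role (vertical axis), with red and blue points for genes past the threshold and bars for the moderated SE over 2 arrays per group. Kcnv2 at 1.81 and Kcnn1 at 1.58 are the largest rises drawn, Cacnb1 at -0.91 is the largest fall drawn, and members not reported here are left out.

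Genes of the L-type calcium channel complex changed in 1 accessory subunit and not detectably in Cacna1c, the 1 L-type pore gene tested. No coding probe was matched to Cacna1d. Cacna1c, the pore of the cardiac L-type channel, read 4598, 4488 and 4512 units in control and 4641, 5024 and 4873 in H/R, a difference of 0.08 ± 0.09 (adjusted p = 0.587) that became -0.05 when arrays were scaled to their median. Cacnb1, which encodes a beta subunit best known from skeletal muscle, read 225, 191 and 202 units in control and 116, 111 and 103 in H/R. Its groups did not overlap, and the fall was 0.91 ± 0.12, to 53.1% of control (adjusted p = 0.00943). Without H/R array 2 its change was -0.85 and its call was lost (adjusted p = 0.0622). Cacnb2, the main cardiac beta subunit gene, differed by 0.09 ± 0.10 and Cacnb3 by 0.22 ± 0.14, and neither passed (adjusted p = 0.533 and 0.297), the Cacnb2 value becoming -0.03 with the median scaling. Cacna2d1, the alpha2delta subunit gene, differed by -0.15 ± 0.15 (adjusted p = 0.499), and its other probes gave -0.39 and -0.26 without passing. Of 15 accessory subunit genes, 9 were tested, 0 rose and 1 fell.

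Of the T-type channels, which open at more negative voltages, Cacna1g rose. It read 484, 454 and 465 units in control and 722, 648 and 663 in H/R, with no overlap. The rise was 0.54 ± 0.10, or 1.46-fold (adjusted p = 0.0242), and the call was lost with each of the 4 arrays left out in turn (changes of 0.47 to 0.61, adjusted p of 0.0649 to 0.122) and with the median scaling, which gave 0.42. Cacna1i, another T-type gene, missed the threshold at 0.43 ± 0.13 (adjusted p = 0.0738). Cacna1h was well above background in no scan, as were Cacna1a, Cacna1b, Cacna1e and Cacna1f, the pore genes of neuronal and retinal channels.

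The voltage-gated potassium channels are the largest role, with 34 pore subunit genes, of which 21 were tested, 3 rose and 0 fell. Kcnd3, which encodes the Kv4.3 pore of the transient outward current, read 119, 119 and 118 units in control and 235, 200 and 197 in H/R. All H/R scans lay well above the control scans, which were nearly equal. Its rise was 0.86 ± 0.12, or 1.82-fold (adjusted p = 0.0114), and without H/R array 1 it was 0.74 and did not pass (adjusted p = 0.0573). Kcnd2, which encodes the Kv4.2 pore, differed by -0.03 ± 0.10 (adjusted p = 0.818). Kcnip2, which encodes the accessory protein that brings Kv4 channels to the surface, read 158, 230 and 226 units in control and 251, 385 and 389 in H/R. Its difference of 0.71 ± 0.28 did not pass (adjusted p = 0.128). Array 1 was lower than array 2 in both groups, and the gene's other 2 probes gave 0.62 and 0.70.

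Kcnv2, which encodes a silent subunit that makes no channel alone and modifies Kv2 channels, showed the largest rise in the set. It read 12.6, 8.65 and 14.8 units in control, well above background in none of these scans, and 44.2, 41.4 and 38.3 in H/R, well above background in all 3. The fitted rise was 1.81 ± 0.11, or 3.51-fold (adjusted p = 0.00225), and the call held with each array left out in turn. As the control signals were not well above background, the size of the rise is uncertain. Kcna3, which encodes Kv1.3, was of the same kind, with 16.3, 13.8 and 13.5 units in control against 21.1, 25.0 and 21.5 in H/R. Its fitted rise was 0.57 ± 0.13, or 1.48-fold (adjusted p = 0.0370). The Kcna3 call was lost without control array 2 (0.44, adjusted p = 0.0892), without H/R array 1 (0.64, adjusted p = 0.108) and without H/R array 2 (0.50, adjusted p = 0.163). It was also lost with quantile normalization (0.33, adjusted p = 0.138), with the median scaling (0.44, adjusted p = 0.0546), with the percentile taken over probes detected in every scan (0.56, adjusted p = 0.0541) and in the authors' deposited table (0.33, adjusted p = 0.154).

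The delayed rectifier genes Kcna5, Kcnh2 and Kcnq1 did not pass. Kcna5, which encodes the Kv1.5 channel of the ultrarapid current, read 94.0, 150 and 147 units in control and 189, 232 and 225 in H/R. Its difference of 0.81 ± 0.25 had an adjusted p of 0.0740, and array 1 was again lower than array 2 in both groups. Kcna5 passed without control array 2 (1.14), but not without control array 1 (0.49), H/R array 1 (0.95) or H/R array 2 (0.68). Kcnh2, the HERG gene of the rapid delayed rectifier, differed by -0.26 ± 0.14 (adjusted p = 0.235), and Kcnq1, the gene of the slow delayed rectifier, by 0.26 ± 0.14 (adjusted p = 0.229). Kcne1, the partner of Kcnq1, was well above background in no scan.

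Accessory subunits of potassium channels moved in both directions, with 2 of 7 tested genes higher and 1 lower. Kcnab2, which encodes the beta2 subunit of Kv1 channels, read 56.0, 53.5 and 55.0 units in control and 112, 128 and 132 in H/R. Its rise was 1.13 ± 0.11, or 2.18-fold (adjusted p = 0.00592). Kcne2, which encodes a small membrane protein that pairs with several potassium channels, read 849, 852 and 826 units in control and 1536, 1596 and 1609 in H/R. Its rise was 0.90 ± 0.09, or 1.86-fold (adjusted p = 0.00600). Both genes had scans close together within each group and kept their call with each array left out in turn. Kcnmb4, the beta4 subunit gene of the large-conductance calcium-activated (BK) channel, went the other way, from 1220, 1261 and 1226 units in control to 831, 921 and 949 in H/R. It fell by 0.48 ± 0.11 (adjusted p = 0.0339), with no overlap, and its call was lost with each array left out in turn (changes of -0.57 to -0.40, adjusted p of 0.0890 to 0.152).

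Kcnv2 and Kcnab2 had the largest rises among the called members with exactly 1 window in the promoter table used here. The 250 bases before their starts are shown (RefSeq, GRCr8, 5′ to 3′ on the gene's strand). The Kcnv2 window is chr1:234412924-234413173 on the plus strand and the Kcnab2 window is chr5:168270761-168271010 on the minus strand. Capitals mark matches to the motifs searched.
Kcnv2: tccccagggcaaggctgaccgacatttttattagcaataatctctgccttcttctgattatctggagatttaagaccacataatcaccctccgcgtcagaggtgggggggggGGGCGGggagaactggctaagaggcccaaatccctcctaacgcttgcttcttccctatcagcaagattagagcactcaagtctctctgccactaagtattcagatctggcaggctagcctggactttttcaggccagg
Kcnab2: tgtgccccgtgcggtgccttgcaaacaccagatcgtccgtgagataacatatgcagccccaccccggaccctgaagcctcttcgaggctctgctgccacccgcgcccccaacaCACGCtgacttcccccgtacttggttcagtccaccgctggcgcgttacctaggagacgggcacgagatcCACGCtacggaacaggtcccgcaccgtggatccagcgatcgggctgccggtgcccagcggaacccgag
The motifs were ACGTG and GCGTG, both forms of the core that hypoxia-inducible factors bind, GGGCGG (the GC box), TGACGTCA (the cAMP response element) and TGANTCA (the AP-1 site), each on both strands. In Kcnv2 the capitals are 1 GC box, 138 bases before the start, and in Kcnab2 they are 2 matches to GCGTG. Over all 27457 genes of the table, windows of the same length held ACGTG in 16.9%, GCGTG in 27.2% and GGGCGG in 32.4%. Among the 94 members with a window, called or not, the shares were 8.51%, 35.1% and 52.1%. Of the 11 called members with a window, 0 held ACGTG, 2 held GCGTG (Kcnab2 and Kcnk2) and 6 held GGGCGG, and 0 held TGACGTCA or TGANTCA, which 1.70% and 6.36% of all windows held. Such a match is a description of letters and not a measured binding site.

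Calcium- and sodium-activated potassium channels had 4 tested genes of 7, and 3 of them rose. Kcnn1, which encodes the small-conductance SK1 channel, read 39.3, 24.4 and 28.5 units in control and 100.4, 93.9 and 91.5 in H/R. Every H/R scan was over 2 times the highest control scan. The rise was 1.58 ± 0.21, or 3.00-fold (adjusted p = 0.0103), but the call was lost without H/R array 1 (1.53, adjusted p = 0.0570) and without H/R array 2 (1.64, adjusted p = 0.0525). Kcnma1, which encodes the BK pore, read 47.8, 61.7 and 58.9 units in control and 113, 81.8 and 83.5 in H/R. It rose by 0.85 ± 0.20, or 1.80-fold (adjusted p = 0.0410), while the BK subunit gene Kcnmb4 fell as given above. The Kcnma1 arrays differed more within groups, and with each array left out in turn the call was lost (changes of 0.62 to 1.07, adjusted p of 0.0544 to 0.134), as it was with the median scaling (0.72, adjusted p = 0.0502), quantile normalization (0.71, adjusted p = 0.0821) and the authors' deposited table (0.70, adjusted p = 0.0963). Kcnt1, which encodes a sodium-activated channel, read 63.7, 55.8 and 60.6 units in control and 84.8, 77.2 and 79.8 in H/R and rose by 0.42 ± 0.11 (adjusted p = 0.0466). That call was lost under every other scaling, where the change was 0.29 to 0.41, and with each array left out in turn (0.36 to 0.49, adjusted p of 0.0826 to 0.191), without the scan of H/R replicate 3 (0.41, adjusted p = 0.0546) and in the authors' deposited table (0.29, adjusted p = 0.103). Kcnn4, the intermediate-conductance channel gene, was well above background in 2 control scans and in no H/R scan, and was not tested.

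**Figure D3:**
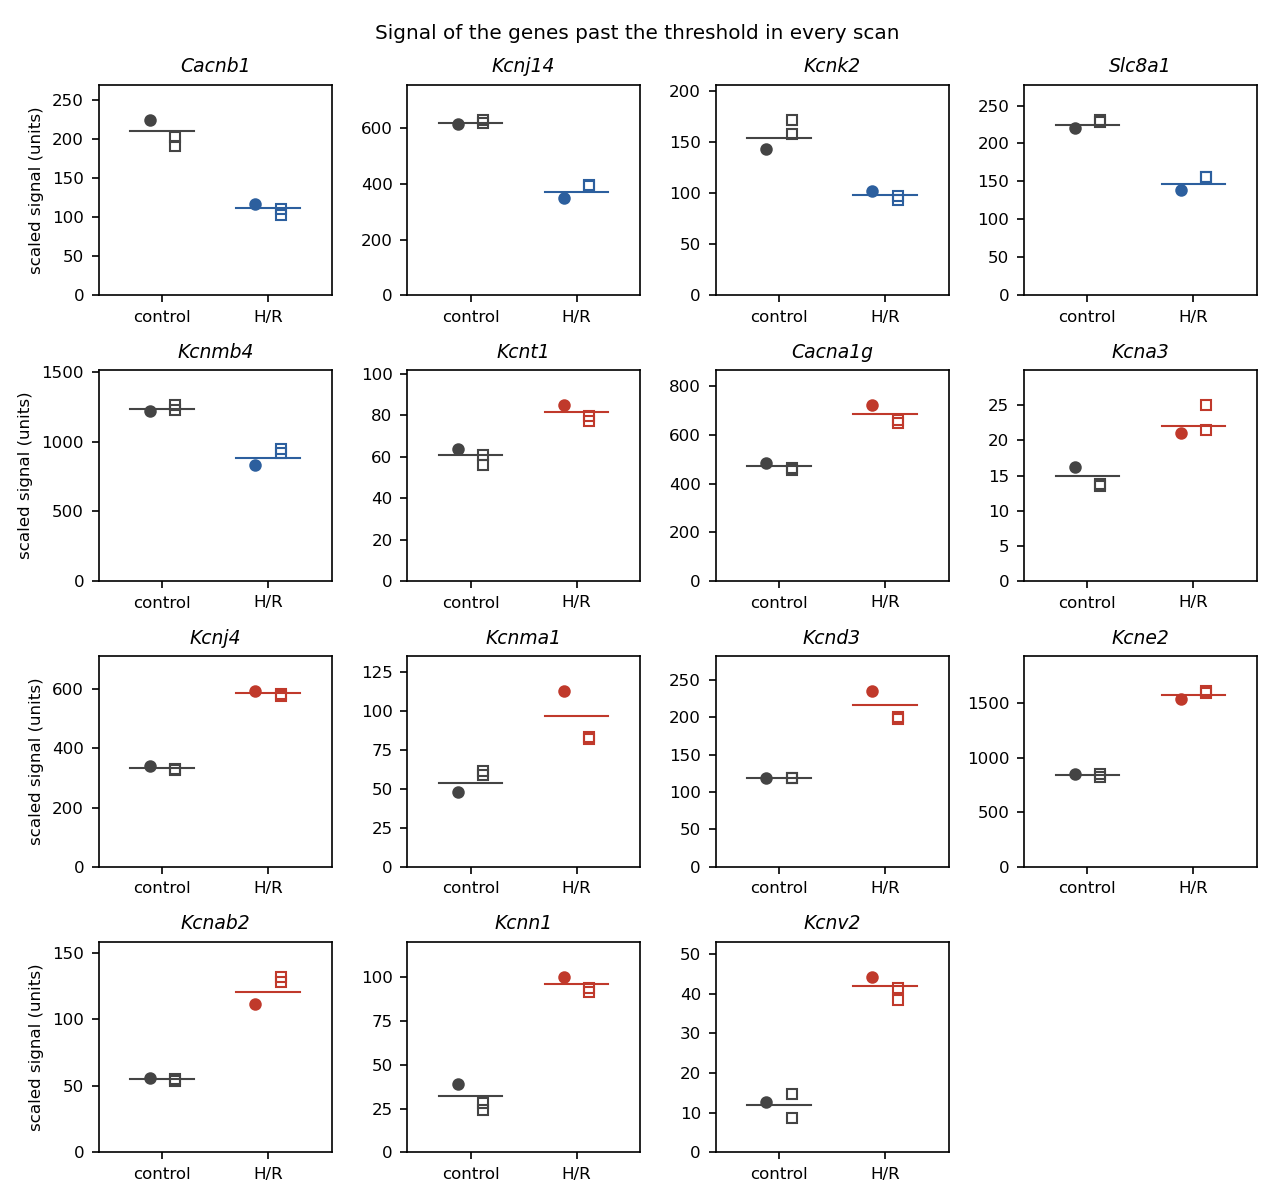
Scaled signal in units (vertical axis, from 0) of 15 genes past the threshold in control and H/R scans, with a filled circle for replicate 1, open squares for replicates 2 and 3, which are scans of the same array, and a line for the mean of the 2 arrays on the log2 scale. In each of the 15 panels the H/R scans lie all above or all below the control scans, as they do for 66.1% of all genes tested. Lack of overlap was also part of the rule for naming genes, so it is no separate result. Kcne2 lies between 826 and 852 units in control and between 1536 and 1609 in H/R.

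Inward rectifiers, which hold the resting potential, were mostly dim, with 8 of 15 genes well above background in no scan. Those 8 included Kcnj2 and Kcnj12, the main genes of the cardiac resting current, and Kcnj3, a subunit of the acetylcholine-gated channel. Of 4 tested, 1 rose and 1 fell. Kcnj4, which encodes Kir2.3, read 340, 327 and 330 units in control and 594, 583 and 578 in H/R, a rise of 0.81 ± 0.09, or 1.76-fold (adjusted p = 0.00706). Its scans were close within each group, but with 1 H/R array left the call was just lost (0.80 and 0.83, adjusted p = 0.0528 and 0.0511). Kcnj14, which encodes Kir2.4, read 617, 631 and 618 units in control and 348, 397 and 394 in H/R. It fell by 0.74 ± 0.11, to 59.7% of control (adjusted p = 0.0129), and without H/R array 1 by 0.65 (adjusted p = 0.0717).

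The remaining inward rectifier genes tested encode the pores of channels that ATP closes. Kcnj8 (Kir6.1) read 805, 820 and 820 units in control and 878, 972 and 983 in H/R, a difference of 0.19 ± 0.10 (adjusted p = 0.232). Kcnj11 (Kir6.2) differed by 0.44 ± 0.15 (adjusted p = 0.101), from 36.3, 45.8 and 46.8 units to 52.5, 61.3 and 56.7. Neither passed, while Abcc9, which encodes the SUR2 subunit that partners both pores in muscle, fell from 5472, 5684 and 5713 units to 3896, 3849 and 3883. The Abcc9 fall was 0.52 ± 0.09, to 69.5% of control (adjusted p = 0.0201), and its call was lost with each array left out in turn (changes of -0.55 to -0.50, adjusted p of 0.0572 to 0.107).

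Of the K2P background potassium channels, 5 of 12 genes were tested. Kcnk2, which encodes the stretch-sensitive channel TREK-1, read 144, 172 and 158 units in control and 102, 93.8 and 97.1 in H/R. It fell by 0.64 ± 0.11, to 64.0% of control (adjusted p = 0.0209), with no overlap. The call was lost without control array 2 (-0.54, adjusted p = 0.0565), without H/R array 1 (-0.69, adjusted p = 0.0833) and without H/R array 2 (-0.60, adjusted p = 0.108). Kcnk3, which encodes the acid-sensitive channel TASK-1, differed by -0.35 ± 0.22 with overlapping groups (adjusted p = 0.287). Kcnk12 and Kcnk13 differed by 0.14 and 0.29 and did not pass. Of the HCN pacemaker genes, Hcn3 differed by 0.09 and did not pass, and Hcn2 was well above background in no scan.

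Among calcium transporters, the gene of the cardiac sodium-calcium exchanger fell and the SERCA gene did not pass. Slc8a1, the exchanger gene, read 220, 231 and 228 units in control and 139, 156 and 156 in H/R. The groups did not overlap, and the fall was 0.61 ± 0.11, to 65.4% of control (adjusted p = 0.0195). With each array left out in turn its change was -0.69 to -0.53 and it did not pass (adjusted p of 0.0583 to 0.1001). Atp2b1, a plasma membrane calcium pump gene, read 15338, 23176 and 23144 units in control and 11133, 10469 and 10542 in H/R. Its difference of -0.80 ± 0.21 narrowly missed the threshold (adjusted p = 0.0547), with the control arrays far apart. Atp2b1 passed with the median scaling at -0.93 and without control array 1 at -1.10. It did not pass without control array 2 (-0.50), H/R array 1 (-0.84) or H/R array 2 (-0.76). Atp2a2, which encodes the SERCA pump of the heart, read 31742, 35661 and 35275 units in control and 29626, 30182 and 30234 in H/R, a difference of -0.17 ± 0.10 (adjusted p = 0.290), and -0.06 at its other probe. Atp2a3 differed by 0.29 ± 0.17 with overlapping groups (adjusted p = 0.255).

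Calcium release channels did not pass. Itpr1 and Itpr3, genes of inositol trisphosphate receptors, were clear of background in each scan. Itpr1 read 7851, 7567 and 7594 units in control and 8760, 8980 and 9134 in H/R, a difference of 0.21 ± 0.09 (adjusted p = 0.166). Itpr3 differed by 0.06 ± 0.09 (adjusted p = 0.645), or -0.07 with the median scaling. Itpr2 was well above background in 2 control scans only. It read 9.09 units in control replicate 1 and 20.5 and 22.3 in control replicates 2 and 3, which are 1 array. Ryr2, the cardiac ryanodine receptor gene, read between 3.77 and 9.69 units over the 6 scans. It was well above background in none of them, so neither its presence nor a change was detectable. No coding probe was matched to Ryr1 or Ryr3.

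Of the members too dim to be tested, 29 were well above background in some scans. In 21 of these more H/R than control scans passed, and in 5, Cacng1, Itpr2, Kcnab3, Kcnn4 and Scn4b, fewer. For 12 of the 21 the scans that passed were H/R replicates 2 and 3 alone, which are 1 array, and that array had 89 and 85 members well above background where the other 4 scans had 66 to 71. Its share over all genes was higher as well, 80.0% and 78.6% against 69.8% to 72.4%. The part of array brightness in these detections was not tested, and no change is read from them.

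Partner genes of calcium handling came from a list of genes by function. Of 44 on the array, 40 were tested, 2 rose and 8 fell, beside 16.2% higher and 9.62% lower among all genes tested. The median was -0.15, against 0.07 over all genes tested. Tmem38b and Tmem38a, which encode the TRIC channels that carry counter-ions during calcium release, fell by 1.15 ± 0.09 and 0.71 ± 0.11 (adjusted p = 0.00355 and 0.0144). Tmem38b read 190, 190 and 191 units in control and 85.5, 88.9 and 84.1 in H/R. Trpc6, a calcium-permeable channel gene, read 1549, 2166 and 2155 units in control and 687, 601 and 621 in H/R and fell by 1.50 ± 0.19 (adjusted p = 0.00888).

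Among the regulators, Rrad, which encodes a small GTPase that restrains L-type channels, fell from 36111, 39233 and 38541 units to 19424, 21815 and 21013, by 0.88 ± 0.11 (adjusted p = 0.00838). Camk2g, a calmodulin kinase gene, fell by 0.82 ± 0.10 (adjusted p = 0.00785). With 1 array left out, the calls of Camk2g and Trpc6 were lost without H/R array 2 (adjusted p = 0.0573 and 0.0540, changes of -0.76 and -1.41). That of Rrad was lost without H/R array 1 (-0.81, adjusted p = 0.0549). That of Tmem38a was lost without H/R array 1 (-0.73, adjusted p = 0.0741) and without H/R array 2 (-0.70, adjusted p = 0.0843). The 2 that rose, named after their values were seen, were Pln, the phospholamban gene whose product inhibits SERCA, by 0.88 ± 0.20 (adjusted p = 0.0349), and Asph, whose gene also encodes junctin, by 0.62 ± 0.10 (adjusted p = 0.0179). Asph missed the threshold with each array left out in turn (0.54 to 0.70, adjusted p of 0.0522 to 0.0984), and Pln did so without control array 1 (0.83, adjusted p = 0.113), control array 2 (0.94, adjusted p = 0.0770) or H/R array 2 (0.62, adjusted p = 0.0881), and in the authors' deposited table (0.84, adjusted p = 0.0603).

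In the fixed list of sodium and potassium transport partners, 22 of 29 genes were tested, 2 rose and 5 fell, or 9.09% and 22.7%, against 16.2% and 9.62% of all genes tested. The median was -0.08. Sgk1, which encodes a kinase that raises sodium channels and transporters at the cell surface, fell from 2210, 2270 and 2297 units to 576, 705 and 693, by 1.82 ± 0.13 (adjusted p = 0.00285). Fxyd5, a regulator of the sodium pump, fell from 2836, 2434 and 2497 units to 873, 698 and 694, by 1.76 ± 0.15 (adjusted p = 0.00428). Both calls held with each array left out in turn. Fxyd1, the phospholemman gene and the cardiac regulator of the same pump, went the other way, from 160, 129 and 127 units to 266, 222 and 230, a rise of 0.77 ± 0.16 (adjusted p = 0.0283) that did not pass without control array 2 (0.61, adjusted p = 0.0674), H/R array 1 (0.66, adjusted p = 0.121) or H/R array 2 (0.89, adjusted p = 0.0788). Cav3, the caveolin gene of muscle, fell by 0.50 ± 0.09 (adjusted p = 0.0236), and Akap9, a scaffold gene of the slow delayed rectifier, rose by 0.42 ± 0.09 (adjusted p = 0.0325). The calls of Cav3 and Akap9 were lost with each array left out in turn, with changes of -0.54 to -0.46 and of 0.41 to 0.44 and adjusted p of 0.0595 to 0.116 and of 0.0737 to 0.147. The Akap9 call was also lost with the median scaling (0.30, adjusted p = 0.110).

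The calls depended on how background and dim probes were handled. With no filter on dim probes, 1 of the 10 higher calls (Kcnv2) and 1 of the 6 lower calls were kept (limma). Kcnab2 and Kcne2 then missed the threshold at adjusted p of 0.0502 and 0.0513. Over all 24578 probes that setting called 432 higher and 162 lower, against 2358 and 1411 of 15899 with the filter. Of the 16 called members, 12 kept their call under all 4 other scalings and 13 in the authors' deposited table, and Kcnv2, Kcnab2 and Kcne2 kept it without each of the 4 arrays in turn. After normexp background correction the all-probe median went from 0.07 to 0.33. Over the whole array 0 of 15899 probes then passed (limma), with 2044 at an unadjusted p under 0.05. None of the 16 passed, an outcome shared with every other probe. Of the 16, 13 kept their direction, while Cacnb1, Kcnk2 and Slc8a1 turned to 0.09, 0.27 and 0.17. No partner gene passed after normexp either (limma), and the falls of Tmem38b, Tmem38a and Camk2g shrank to values of -0.0055, -0.25 and -0.17 (adjusted p = 0.997, 0.665 and 0.801).

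**Figure D4:**
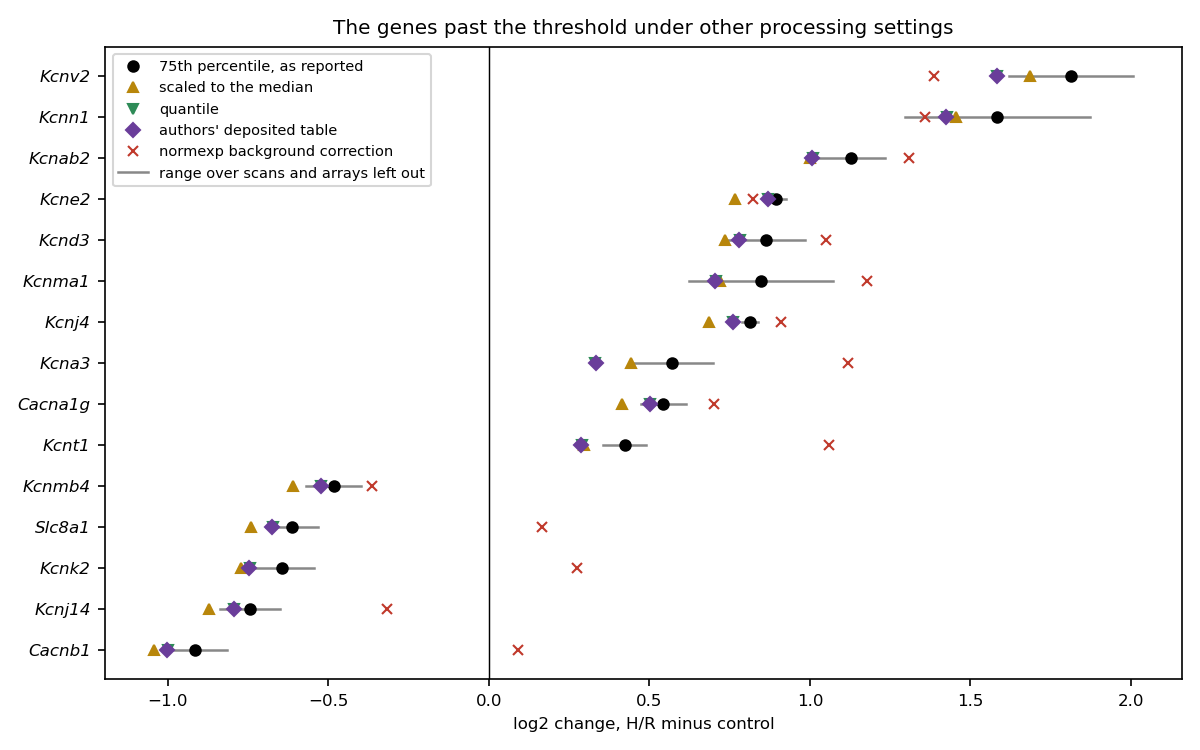
Change of 15 genes past the threshold (vertical axis) on the log2 scale, H/R minus control (horizontal axis), with 75th percentile scaling, median scaling, quantile normalization, the authors' deposited table and normexp background correction, and a grey line for the range with scans or arrays left out. The crosses of Cacnb1, Kcnk2 and Slc8a1 lie on the other side of 0.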

How the data were processed

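Each of the 6 deposited scanner files holds 1-colour intensity values per spot. The authors used Agilent Feature Extraction 11.0.1.1, per the file headers and the processing notes, whose processed intensity has the background removed but no scaling across arrays. Other deposited columns are flags for outlier spots, saturation and signal above background. A deposited log2 table by the authors covers 16841 probes; its columns had medians of 9.18 to 9.19 and correlated with the scanner log2 values at 0.9998 to 0.9999, so genes were not centred; the sources used here do not give its normalization.

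Control spots and outliers were dropped, the log2 values of spots sharing a probe were averaged, and the 75th percentile over the 24578 probes usable in every file was subtracted. A probe counted as well above background where more than 50% of its spots did. Groups were compared with lmFit and eBayes (limma 3.58.1, R 4.3.3), replicates 2 and 3 averaged (2 residual and 2.86 prior degrees of freedom), two-sided, with Benjamini-Hochberg adjustment over 15899 probes, and checked on simulated data. Accessions were matched without versions to a RefSeq table of GRCr8, which named 14274 of 15323 coding probes. The array design names rn4, so no gene coordinates from GRCr8 are given besides those of the promoter windows. Python 3.11.15, pandas 2.3.3 and matplotlib 3.10.9 were used.

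Members, lists and tests were chosen with earlier results of these data known. Some genes that these rules name are not reported here. Other members named as examples of their role were picked after their values were seen. Named were up to 15 called members each way with the largest change and no overlap between groups. Also named were heart channel genes fixed by name (43 in all, 38 on the array, 26 tested) and the 6 called genes of smallest adjusted p in each partner list. No coding probe was matched to Cacna1d, Hcn4, Ryr1, Ryr3 or Atp2a1. The labels' protocol names a mouse cortex as RNA source, against the rat line in all other labels.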

Additional observations from a re-analysis of the deposited data

How the results depend on the processing

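The main counts were 10 channel and calcium transport genes higher and 6 lower, 10 calcium handling partners and 7 sodium and potassium transport partners called. In that order, the counts were 0, 0, 0 and 0 with normexp background correction, under which 0 of all 15899 probes passed. With no filter on dim probes the counts were 3, 1, 1 and 2, and only 1 of the 3 was among the 10 main higher calls. The counts were 24, 12, 23 and 14 with the 6 scans taken as separate samples, which counts each rescanned array as 2. Without H/R replicates 2 and 3 they were 4, 2, 2 and 2. Scaling to the median left 6 members higher, and 3 sodium and potassium partners were called without control replicates 2 and 3. Median scaling moved the all-probe median from 0.07 to -0.06 and the all-probe split from 2358 higher and 1411 lower to 1566 and 2253. Without 1 scan, members higher ranged from 3 to 11, members lower from 2 to 6, calcium partners from 5 to 10 and the other partners from 3 to 7. The normexp values of Cacnb1, Kcnk2 and Slc8a1 turned to 0.091, 0.27 and 0.17; the cause was not tested. The planned mean signal was not used for normexp, which took the median signal. With the replicate block over numbers 1 and 2, 11 members were higher and 6 lower, but only 8 of the 10 main higher calls were among the 11: Kcna3 (adjusted p = 0.0514) and Kcnma1 (adjusted p = 0.0579) were lost, and 3 were gained, Kcnip2 (adjusted p = 0.0190) and Kcna5 (adjusted p = 0.0256) among them. All 6 lower calls were kept. With the replicate block over 6 scans, 29 members were higher and 13 lower, with 27 and 14 partners called. Same-numbered arrays correlated at 0.15 in their deviations, but with 2 arrays per group the numbers share only a label. The percentile over spots was added after seeing the data. Signal over background limits the 67 members not tested.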
